A study of Mus musculus with 45 samples.

Results

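Liver mRNA of mice given metformin in their drinking water was compared with liver mRNA of untreated mice on the same diet. The comparison took all 9 metformin libraries and all 9 basal libraries of the series, 18 of its 45, and fitted metformin as 1 effect beside diet. The other 27 libraries, taken after insulin, were not used except in 1 alternative. Of 23227 genes in the count table, 4335 had no read in the 18 libraries and 13108 had enough reads to be tested.

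All mice were wild type C57BL/6J, 24 weeks old and fasted overnight when the liver was frozen. One diet was chow and the other 2 were a high-fat diet (HFD), eaten either from 18 weeks of age (6-week HFD) or from 8 weeks of age (16-week HFD), so the time on HFD and the age at its start cannot be told apart. Metformin was given at 270 mg/kg/day of lean body mass, begun at 8 or 18 weeks of age; which age applied to the mice on chow is not given in the sources used here. Each diet had 3 basal and 3 metformin libraries. Per the series design a group had 3 mice or more, but no label ties a library to a mouse, litter or day, so p-values measure the spread between these libraries.

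Metformin is a biguanide drug for type 2 diabetes that acts largely in the liver. It is known as a weak inhibitor of complex I of the respiratory chain, raises AMP and thereby activates the kinase AMPK, and has been reported to inhibit the mitochondrial glycerol phosphate dehydrogenase Gpd2. Lower glucose output by hepatocytes is its best known effect in liver. AMPK restrains fat and cholesterol synthesis by phosphorylating their enzymes, so much of the drug's action need not appear in mRNA.

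The libraries held 19 to 50.3 M counted reads. The 9 metformin libraries held 19.1 to 23.7 M. The 3 basal libraries of 6-week HFD held 35.1 to 50.3 M, and chow basal replicate 1 held 45.7 M. With the 18 libraries thinned to one depth, 2723 genes were called in place of 3118. The 16-week HFD metformin replicate 1 stood apart from the other 17 in the trend with exon length described next, and pancreas and muscle transcripts, described with the cell markers, were present in some libraries. Hepatocyte markers (10 genes, led by Alb) summed to 103000 to 137000 CPM (read counts scaled to the size of the library) in basal and 117000 to 175000 CPM in metformin libraries.

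Between metformin and basal libraries 3118 genes differed (23.8%), called at a Benjamini-Hochberg adjusted p below 0.05 in edgeR's quasi-likelihood test. In the same test 5079 had an unadjusted p below 0.05. Of the 3118 calls 1594 were higher with metformin (12.2%) and 1524 were lower (11.6%). Most differences were small: the median size among called genes was 0.376 on the log2 scale, and 44 higher and 101 lower genes passed 2-fold. The sign was the same on all 3 diets for 96.9% of called genes and for 50.5% of all tested genes. Calls rest on the pooled difference over the same libraries, which favours equal signs, so the 96.9% is not a separate test. With no overlap between the basal and metformin libraries of any diet, 474 genes were higher and 257 lower (5.58%). Without the 6-week HFD libraries 582 genes were called, without the chow libraries 1706 and without the 16-week HFD libraries 2607. The count of lower genes fell to 910 without 16-week HFD basal replicate 2 and to 902 without replicate 3 of that group.

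The difference was tied to the length of the mRNA. Genes called higher had a median exon length of 1463.5 bases and genes called lower 4785.5 bases, against 2835.5 bases over all tested genes. In the decile of genes with the shortest exons (median 865 bases), 42.2% were called higher and 2.97% lower, with a median log2 fold change of 0.28. In the decile with the longest (median 7668 bases), 0.992% were higher and 33.8% lower, with a median of -0.25. Across the 13108 genes, which are not independent replicates, the Spearman correlation of the fold change with exon length was -0.56; it was -0.31 on chow, -0.50 on 6-week HFD and -0.51 on 16-week HFD.

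The same trend was measured in each library as the correlation of a gene's deviation from its mean over the 18 libraries with its exon length. This correlation was 0.258 ± 0.136 (SD, n = 9) in basal and -0.196 ± 0.201 (SD, n = 9) in metformin libraries. The difference of -0.454 had an exact permutation p of 0.00025 (two-sided, labels exchanged within each diet), the smallest that the 8000 ways allow. Basal and metformin libraries did not overlap within any diet. The lowest value was -0.65 in 16-week HFD metformin replicate 1; without it the difference was -0.407. Over all diets GC content showed no such difference (0.0031, exact permutation p = 0.959). On 16-week HFD, though, the correlation with GC content was 0.172 to 0.354 in basal and -0.0158 to 0.141 in metformin libraries, without overlap. On the other diets it was higher on average with metformin, with overlap. The trend with exon length moved with metformin on every diet, so it and the treatment cannot be told apart in these libraries.

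**Figure D1:**
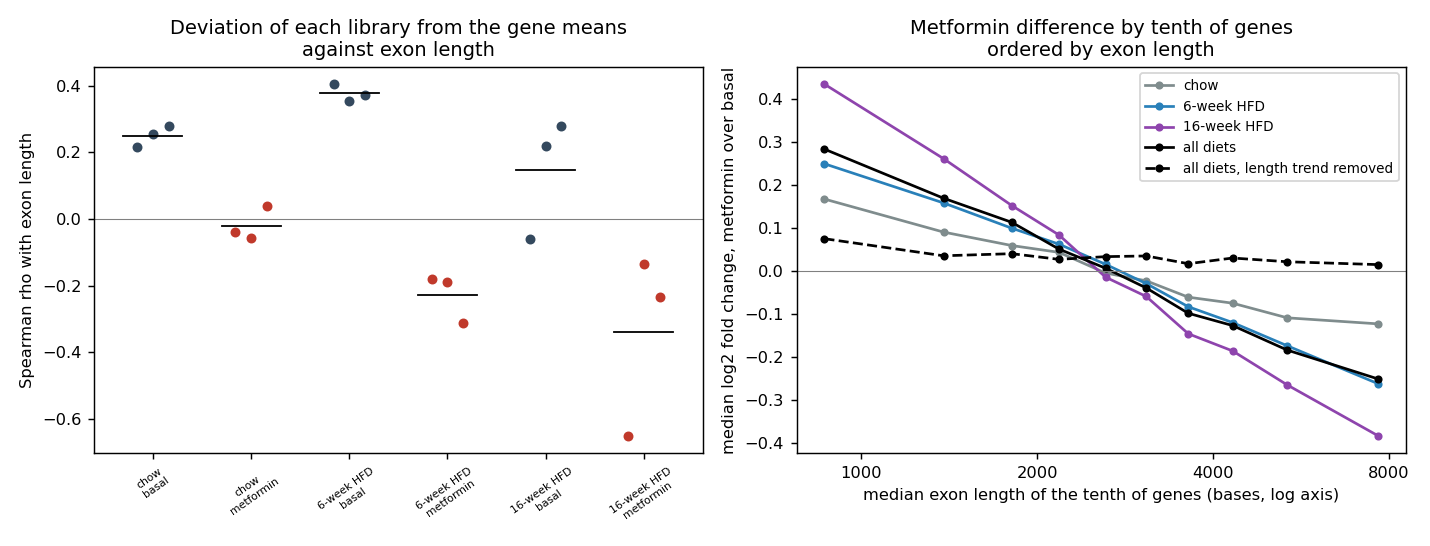
Left, Spearman correlation of each library's deviation from the gene means with exon length, by group (points are libraries, blue basal and red metformin, lines are group means). Right, median log2 fold change of metformin over basal in each decile of the genes against median exon length in bases on a log axis, by diet and over all diets, the dashed line after removal of each library's length trend; the solid line over all diets runs from 0.28 to -0.25 and the dashed line from 0.07 to 0.01.

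The tests over all diets, within diets and of variation with diet were therefore also run with each library's length trend removed by a spline. CPM values, statements of overlap and summed levels below still hold the trend, as do the medians of lists on single diets. With the trend removed the fit over all diets called 1821 genes (13.9%), 1260 higher (9.61%) and 561 lower (4.28%). Of these calls 69.2% were higher, against 51.1% before. Of the first 3118 calls, 1333 were called again in the same direction (864 higher, 469 lower), and none in the opposite one. These made up 42.8% of the first set and 73.2% of the second. After the removal the fold change had a correlation of -0.05 with exon length. A removal of this kind also takes away any change of the drug that truly differs between short and long mRNAs, so list counts from the second fit are given beside the first where they differ.

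The largest differences lay in genes with near-identical copies elsewhere in the genome, where a short read can be counted for one copy or another. A gene was marked as shared where at least 20% of the 40-base words of its transcripts also occur in another gene, which held for 844 of 12977 tested genes with a transcript match (6.5%). Of these, 33.9% were called and 5.45% were called past 2-fold; of the other 12133 genes, 23.1% and 0.799%. Among the 143 called genes past 2-fold with a transcript match, 46 were shared (32.2%). Of 272 shared genes whose nearest copy was also tested, 54 were called together with that copy, and in 9 of them gene and copy moved in opposite directions.

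Cox7c, a small subunit of cytochrome c oxidase, and its intronless copy Gm10012 show what such a pair looks like. Over whole transcripts, 23.2% of the 40-base words of Cox7c and 62.5% of those of Gm10012 also occur in another gene. The coding sequences of both, from GENCODE M21, follow, because they differ in few bases. Capitals mark those 2 bases of 192 (98.96% identical).
Cox7c: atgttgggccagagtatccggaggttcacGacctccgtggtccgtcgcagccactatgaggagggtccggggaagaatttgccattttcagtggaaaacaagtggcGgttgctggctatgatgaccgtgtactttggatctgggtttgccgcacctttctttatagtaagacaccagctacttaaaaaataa
Gm10012: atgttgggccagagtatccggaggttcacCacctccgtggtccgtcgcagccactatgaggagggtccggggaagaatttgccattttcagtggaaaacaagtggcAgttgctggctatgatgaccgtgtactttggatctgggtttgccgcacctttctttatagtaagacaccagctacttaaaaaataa

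Cox7c (mm9 chr13:86184403-86186400, minus strand) lay at 78.5, 89.6 and 106 CPM in basal libraries (lowest, median and highest) and at 185, 200 and 355 CPM in metformin libraries. All 9 metformin libraries were above every basal library (log2 fold change 1.22 ± 0.10 (SE), adjusted p = 6.28e-07). Gm10012 (mm9 chr17:26038801-26039172, minus strand) went the other way, from 12.3, 17.9 and 21.5 CPM to 3.73, 4.03 and 6.74 CPM (-1.95 ± 0.13, adjusted p = 5.97e-08), with all 9 metformin libraries below the basal range. Their sum was still apart, at 91.3, 102 and 125 CPM in basal and 189, 204 and 361 CPM in metformin libraries.

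The major urinary proteins (Mup), pheromone carriers that male liver secretes in bulk, form a cluster of near-identical genes on chromosome 4. Of 20 tested Mup genes, 4 were higher and 5 lower. The first 100 coding bases of 3 of them, from GENCODE M21, are shown for how little separates genes that moved in opposite directions. Capitals mark the 4 positions where they differ, out of 8 in the whole coding sequence of 543 bases.
Mup8: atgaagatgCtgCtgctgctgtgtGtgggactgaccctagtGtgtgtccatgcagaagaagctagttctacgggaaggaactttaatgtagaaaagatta
Mup19: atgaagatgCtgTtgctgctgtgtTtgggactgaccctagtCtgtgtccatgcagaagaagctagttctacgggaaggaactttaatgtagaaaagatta
Mup10: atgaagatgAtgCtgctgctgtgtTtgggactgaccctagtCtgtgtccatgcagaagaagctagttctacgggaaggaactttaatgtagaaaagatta

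Mup8 (mm9 chr4:60231493-60235471) lay at 3.14, 9.25 and 37.5 CPM in basal and 50.6, 162 and 291 CPM in metformin libraries (3.60 ± 0.37, adjusted p = 7.15e-06), without overlap. Mup19 rose by 2.84 ± 0.40, from 8.52 to 24.3 CPM to 19.9 to 382 CPM, with overlap in 1 library. Mup10, which differs from Mup19 in 3 of 543 coding bases, fell from 189, 446 and 539 CPM to 53.5, 75.9 and 106 CPM (-2.35 ± 0.15, adjusted p = 1.72e-08). Mup9 fell from 981, 2310 and 2900 CPM to 199, 313 and 602 CPM (-2.54 ± 0.25), also without overlap. The sum of all 20 Mup genes overlapped between the groups, at 10000, 30000 and 34900 CPM in basal and 16500, 25500 and 36600 CPM in metformin libraries. Mup8, Mup9, Mup10, Mup11 and Mup19 alone, 2 called higher and 3 lower, had a lower sum with metformin. It was 1210, 3240 and 4250 CPM in basal and 420, 779 and 1330 CPM in metformin libraries, with 8 of 9 below the basal range.

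Other shared genes led the list of higher genes. E030024N20Rik (mm9 chr19:16238588-16244948; 62.9% of its words in other genes) rose from 3.82, 4.85 and 5.96 CPM to 48.8, 57.9 and 148 CPM (3.75 ± 0.20, adjusted p = 2.22e-09). Gstp2, a glutathione transferase, rose by 1.88 ± 0.23 while its neighbour Gstp1, from which it differs in 12 of 633 coding bases, was at 0.15 ± 0.18 (adjusted p = 0.536), and their sum overlapped (296 to 1120 CPM in basal, 321 to 1540 CPM in metformin libraries). Gm6682 (2.06 ± 0.16), Gm13253 (1.76 ± 0.12), the beta-globin gene Beta-s (1.43 ± 0.22) and LOC100048884, a gene in the Mup cluster with no transcript match (3.59 ± 0.58), were higher in all 9 metformin libraries than in any basal library, as E030024N20Rik was. On the lower side Cyp3a44, a cytochrome P450 with 36.8% shared words, fell by 3.51 ± 0.35, from 3.98, 7.79 and 44.2 CPM to 0.392, 0.87 and 6.13 CPM, and Gstm3 fell by 1.23 ± 0.29 (lost without chow). For all of these genes a change in mRNA level and a change in which copy the reads were counted for cannot be told apart. Read length, which affects how well copies are separated, is given for the series and not for each library.

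**Figure D2:**
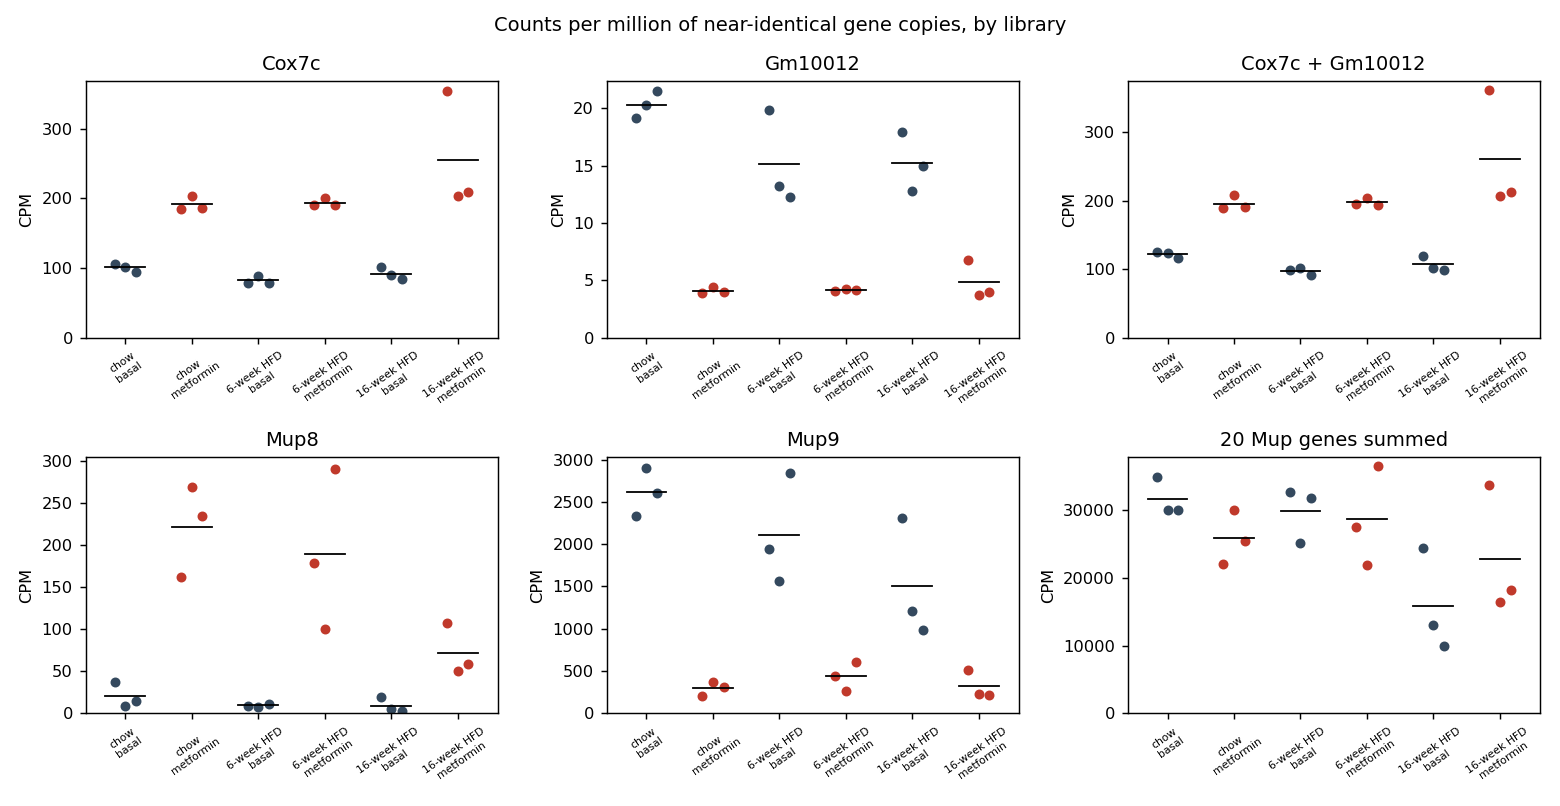
CPM of Cox7c, its copy Gm10012, their sum, Mup8, Mup9 and the sum of 20 Mup genes in each library (points, blue basal and red metformin; lines are group means). Single copies move apart in opposite directions, the Cox7c sum stays apart, and the Mup sum overlaps.

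Both genes of the iron hormone hepcidin were lower with metformin, as were some genes of BMP signalling. Hepcidin, made by hepatocytes, blocks iron export from gut and macrophages. Bone morphogenetic proteins from liver endothelium, chiefly Bmp2 and Bmp6, switch it on through receptors on hepatocytes and the transcription factors Smad1, Smad5 and Smad8, which also switch on the feedback inhibitors Smad6 and Smad7. Of 19 tested genes of this list, which was drawn up after the calls were seen, 7 were lower and none higher. Hamp, Hamp2 and Smad7, known as calls beforehand, are among these 7, so the count and median are not a separate test. The median was -0.35 against -0.03 over all tested genes, of which 11.6% were lower. With the length trend removed 7 were lower and 2 higher. Without 6-week HFD 3 were called, without chow 4, and without 16-week HFD 9 were lower and 1 higher.

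Hamp (hepcidin) lay at 287, 456 and 968 CPM in basal and 120, 202 and 468 CPM in metformin libraries (-1.28 ± 0.25, adjusted p = 0.00247). Chow basal libraries were the highest (mean 916 ± 63 CPM against 266 ± 180 CPM with metformin on chow, SD, n = 3), and the groups overlapped, with 6 of 9 metformin libraries below every basal one. Hamp2, the second mouse hepcidin gene, lay at 20.8, 43.5 and 64 CPM in basal and 6.69, 16.2 and 26.3 CPM in metformin libraries (-1.44 ± 0.21, adjusted p = 0.000345), with 7 of 9 below the basal range. Hamp has 24.8% and Hamp2 16.9% of its words in the other, so the pair cannot be fully told apart, but here both fell. Both calls held in all alternatives in which the gene was fitted.

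The 250 bases before the start of each hepcidin gene, from RefSeq promoters (GRCm38.p6), are shown because the genes moved together and this stretch is where BMP-SMAD factors are known to bind. Capitals mark GGCGCC, the core of the BMP-responsive element, which reads the same on both strands. The window of Hamp (chr7:30944030-30944279, minus strand) holds it 1 time and that of Hamp2 (chr7:30924182-30924431, minus strand) holds it 0 times. Of 27025 promoters of the same length, 9.54% hold it, so a match describes the letters and no more.
Hamp: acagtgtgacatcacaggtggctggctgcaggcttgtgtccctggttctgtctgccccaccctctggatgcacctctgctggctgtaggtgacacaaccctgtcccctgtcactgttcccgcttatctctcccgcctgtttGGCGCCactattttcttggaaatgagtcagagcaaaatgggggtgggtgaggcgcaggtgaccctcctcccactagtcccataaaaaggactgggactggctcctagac
Hamp2: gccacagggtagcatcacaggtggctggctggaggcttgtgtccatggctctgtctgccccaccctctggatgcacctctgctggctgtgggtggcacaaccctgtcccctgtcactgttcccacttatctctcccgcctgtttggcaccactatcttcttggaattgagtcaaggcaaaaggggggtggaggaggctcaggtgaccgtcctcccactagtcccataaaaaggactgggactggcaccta

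Smad7, the inhibitory SMAD, lay at 8.47, 14.1 and 16.9 CPM in basal and 4.77, 6.24 and 10.7 CPM in metformin libraries (-1.06 ± 0.16, adjusted p = 0.000432), and 7 of 9 metformin libraries were below the basal range. Smad6 (-0.58 ± 0.14), the target Id3 (-0.81 ± 0.20) and the ligands Bmp2 (-0.53 ± 0.13) and Bmp6 (-0.68 ± 0.17) were also called, but each lost its call when 1 of the diets was left out. The targets Id1 (-0.23 ± 0.27, adjusted p = 0.549), Id2 (-0.41 ± 0.24, adjusted p = 0.212) and Atoh8 (-0.35 ± 0.20, adjusted p = 0.195) did not pass the test. Scara5, a ferritin receptor, fell by 1.65 ± 0.34, from 2.51, 9.55 and 42.5 CPM to 1.09, 2.97 and 8.49 CPM, with its largest difference on 16-week HFD (-2.60). Bmp2 and Bmp6 are made by endothelium, whose markers were also lower (given with the cell markers), and their part in these results was not tested.

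Cebpb, a transcription factor of fasting, glucocorticoid and cytokine responses (mm9 chr2:167514415-167515918), lay at 44.4, 64.2 and 123 CPM in basal and 21.8, 30.5 and 35.9 CPM in metformin libraries. All 9 metformin libraries were below every basal one (-1.21 ± 0.14, adjusted p = 3.02e-05), with a log2 fold change of -1.002 on chow (adjusted p = 0.0655), -1.09 on 6-week HFD and -1.53 on 16-week HFD. Of 15 genes drawn up after the calls were seen as responders of C/EBP factors and glucocorticoids, 2 were lower and none higher (1 lower with the length trend removed), with a median of -0.02 beside -0.03 over all genes. The share of all genes that were lower was 11.6%, or 4.28% with that trend removed, and Cebpb itself is 1 of the 2. Besides Cebpb the lower gene was Tat, a tyrosine aminotransferase that glucocorticoids induce (-0.33 ± 0.11, adjusted p = 0.0399). The call of Cebpb held in all 37 alternatives.

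Tead1, a DNA-binding partner of the growth regulator YAP, fell from 10.9, 17.5 and 30 CPM to 6.74, 9.53 and 12.5 CPM (-0.91 ± 0.15, adjusted p = 0.000969), with 8 of 9 metformin libraries below the basal range. Among all genes 11.6% were lower, and 4.28% with the length trend removed. Of 15 YAP-TEAD genes, also listed after the calls were seen, 5 were lower and none higher (2 lower with the length trend removed, 1 without 6-week HFD). Tead1 is among the 5, so the count is not a separate test. The others were the YAP target Ctgf (-0.58 ± 0.16), the Hippo kinases Lats2 (-0.35 ± 0.08; 41.5% shared) and Stk4 (-0.23 ± 0.08), and Tead3 (-0.25 ± 0.08). The co-chaperone Bag3 (-0.63 ± 0.12), the transcriptional corepressor Cbfa2t3 (-0.96 ± 0.11), coagulation factor F8 (-0.95 ± 0.18), the GTPase-activating protein Arhgap31 (-0.94 ± 0.17) and A430078G23Rik (-1.58 ± 0.13) were lower in every alternative as well. In Cbfa2t3 and A430078G23Rik all 9 metformin libraries lay below the basal range. Heg1, an endothelial receptor, was at -0.97 ± 0.22 and lost its call without 6-week HFD.

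Among genes that rose and are not shared was Nr0b2, which encodes SHP. This nuclear receptor without a DNA-binding domain is induced by bile acids and represses genes of bile acid and glucose synthesis. Nr0b2 (mm9 chr4:133109305-133112451) lay at 6.43, 20.8 and 41.1 CPM in basal and 26.5, 46.2 and 72.6 CPM in metformin libraries (1.00 ± 0.20, adjusted p = 0.00363), higher by 1.17 on chow, 0.82 on 6-week HFD and 1.01 on 16-week HFD. The groups overlapped, with 6 of 9 metformin libraries above the basal range, and the call held in all 37 alternatives. Mthfs, a folate enzyme, rose with no overlap from 10.5, 12.9 and 14.4 CPM to 19.3, 22.3 and 26.2 CPM (0.84 ± 0.07, adjusted p = 5.94e-07). Short mRNAs with the same pattern in 9 of 9 libraries were Snapc5 (0.84 ± 0.09), Rnaseh2c (0.75 ± 0.12) and the mitochondrial regulator Chchd2 (0.83 ± 0.13). With the length trend removed their differences were 0.61, 0.50 and 0.61, and each was still called. Serpinb1a, a protease inhibitor (0.86 ± 0.17), Mgst3, a microsomal glutathione transferase (0.81 ± 0.15), Akr1c20, a steroid reductase (0.78 ± 0.13), and Leap2, a liver peptide that opposes ghrelin (0.78 ± 0.15), were higher in every alternative. Nudt2 (0.72 ± 0.14) was too, whereas Nipal1 (1.11 ± 0.31), Snhg3 (0.79 ± 0.18) and Pnldc1 (0.72 ± 0.20) lost their calls both without 6-week HFD and without 16-week HFD.

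**Figure D3:**
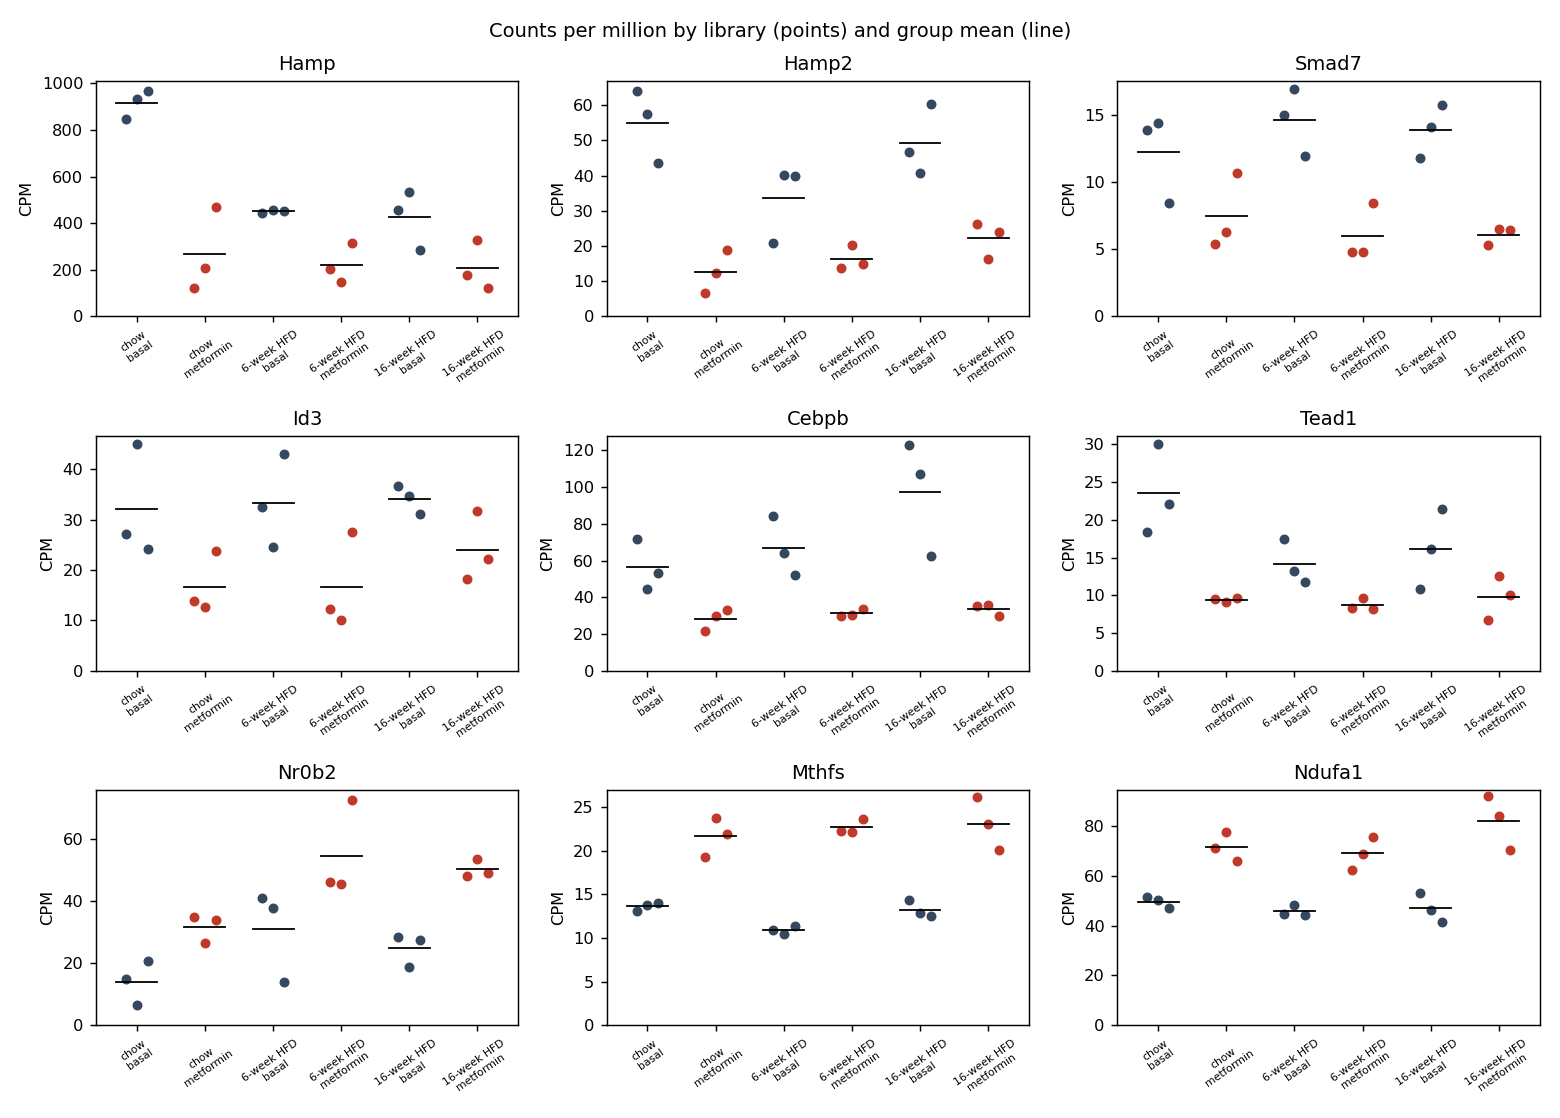
CPM in each library (points, blue basal and red metformin; lines are group means) of 6 genes that were lower with metformin (Hamp, Hamp2, Smad7, Id3, Cebpb and Tead1) and 3 that were higher (Nr0b2, Mthfs and Ndufa1). In Cebpb, Mthfs and Ndufa1 all 9 metformin libraries lie outside the basal range, while in Hamp 6 of 9 do.

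Respiratory chain genes, the site of metformin's best known target, were higher. Of 40 tested nuclear genes of complex I, 26 were higher and none lower (median 0.34, against -0.03 over all tested genes). With the length trend removed 13 were higher and 2 lower (median 0.12), and without 6-week HFD 7 were higher. These are short mRNAs, with a median exon length of 710 bases, in the range where 42.2% of all genes were higher. With the length trend removed 16.5% of the genes in that range were higher and 6.25% lower. Ndufa1, an accessory subunit, lay at 41.3, 47 and 53.2 CPM in basal and 62.5, 71.3 and 91.9 CPM in metformin libraries (0.64 ± 0.07, adjusted p = 1.06e-05), with all 9 metformin libraries above the basal range. Its difference was 0.40 with the length trend removed and was still called. Ndufab1, the acyl carrier protein, rose by 0.63 ± 0.10, also in 9 of 9 libraries, and Ndufa7 by 0.39 ± 0.07.

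Of 39 genes of complexes II to V, 28 were higher and 1 lower (median 0.33), and 17 were higher and 2 lower with the length trend removed. Their median exon length was 692 bases, also in the range where 42.2% of all genes were higher. After removal of the length trend that range had 16.5% higher and 6.25% lower. Beside Cox7c, Cox7b (0.57 ± 0.09) was above the basal range in 9 of 9 metformin libraries and Atp5g1, which encodes the ring subunit of ATP synthase (0.47 ± 0.07), in 8 of 9. Without 6-week HFD 7 were higher and 1 lower. The lower gene was Atp5k, a small subunit of ATP synthase with 292 exon bases, named after its value was seen (-0.41 ± 0.07, adjusted p = 0.0018). It fell although it is short, and by 0.66 with the length trend removed.

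Cytosolic ribosomal protein genes moved in the same way, with 28 of 44 higher and none lower (median 0.33), and 16 higher and 3 lower with the length trend removed. Their median exon length was 740 bases, again in the range where 42.2% of all genes were higher, or 16.5% with the length trend removed (6.25% lower). Of the 44, 28 are shared with pseudogenes; among the other 16, 10 were higher, or 5 with 2 lower once the length trend was removed. Rps14 rose by 0.66 ± 0.09, from 118, 163 and 186 CPM to 221, 242 and 327 CPM, without overlap. Rpl37 (0.56 ± 0.08), Rpl27 (0.52 ± 0.08, 24.2% shared) and Rps26 (0.72 ± 0.11) were likewise above the basal range in all 9 metformin libraries. Without 6-week HFD 9 of the 44 were higher.

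Proteasome genes had 12 of 31 higher and none lower, but 1 higher with the length trend removed. Genes of the endoplasmic reticulum translocon and early secretion had 10 of 30 higher and 7 with the trend removed. Both lists were drawn up after the calls were seen, so their counts are not separate tests. The share of all genes that were higher was 12.2%, and 9.61% with the trend removed. The median difference on 16-week HFD and on chow was 0.56 and 0.23 for complex I, 0.55 and 0.16 for complexes II to V, 0.53 and 0.19 for the ribosome, 0.59 and 0.01 for the proteasome, and 0.35 and 0.08 for the translocon. Whether these medians differ between diets was not tested.

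Genes of metformin transport, the AMPK pathway and Gpd2 follow. The export pump Slc47a1 (MATE1) was at 0.06 ± 0.09 (adjusted p = 0.671). None of the 5 tested transport genes was called by edgeR or DESeq2, and 1 had an unadjusted p below 0.05; Slc22a3 was at -0.25 ± 0.15. Of 16 genes of the AMPK pathway 4 were lower and none higher, beside 11.6% of all genes lower. None of the 16 was called with the length trend removed. The count was 1 lower without 16-week HFD metformin replicate 1 and 1 lower without any one of the diets. The catalytic subunits Prkaa1 (-0.26 ± 0.08, adjusted p = 0.029) and Prkaa2 (-0.25 ± 0.09, adjusted p = 0.0469) have exons of 4655 and 8201 bases; with the trend removed they were at -0.09 and 0.02. Acacb, an AMPK substrate that makes the malonyl-CoA that restrains fat oxidation (8485 bases), went from -0.62 ± 0.15 to -0.32, and Tbc1d1, a regulator of glucose uptake, from -0.44 ± 0.13 to -0.23. Gpd2 (5931 bases) lay at 50.8, 67.1 and 91.5 CPM in basal and 35.4, 45.4 and 62.7 CPM in metformin libraries (-0.47 ± 0.12, adjusted p = 0.0132), by -0.86 on chow and -0.04 on 16-week HFD, and was at -0.25, no longer called, with the trend removed.

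Of 18 gluconeogenesis genes 3 were higher and 2 lower (median 0.09), beside 12.2% and 11.6% of all genes, and 2 were higher and none lower with the length trend removed. Pck1, the rate-limiting step from oxaloacetate, lay at 2610, 3390 and 3970 CPM in basal and 1930, 3340 and 4980 CPM in metformin libraries (0.11 ± 0.12, adjusted p = 0.488). G6pc, which releases free glucose, was at -0.13 ± 0.19 (adjusted p = 0.643), with -0.79 on 6-week HFD and 0.18 and 0.22 on the other two diets. Their coactivator Ppargc1a was at -0.02 ± 0.13 (adjusted p = 0.925). Mdh1, the cytosolic malate dehydrogenase, rose by 0.37 ± 0.08 in 9 of 9 libraries (lost without 6-week HFD), and Fbp1, fructose bisphosphatase, by 0.28 ± 0.08. The others called were Brp44 (Mpc2, a subunit of the mitochondrial pyruvate carrier, 0.39 ± 0.12) and the alanine aminotransferase Gpt2 (-0.22 ± 0.08). None of Fbp1, Brp44 and Gpt2 was called with the length trend removed.

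Of 18 genes of glucose use 3 were higher and 1 lower, or 4 and none with the length trend removed. The shares over all genes were 12.2% and 11.6%, or 9.61% and 4.28% with that trend removed. Gapdh, often used as a reference gene, rose by 0.66 ± 0.10 from 190, 281 and 323 CPM to 375, 401 and 588 CPM, without overlap, though 26.0% of its words are shared with pseudogenes. Gckr, the glucokinase regulator (0.39 ± 0.09), and Ugp2, which makes UDP-glucose (0.43 ± 0.11), were higher. Gckr lost its call without chow and Ugp2 without 6-week HFD. Pfkfb2, which sets the level of the main activator of glycolysis, was lower (-0.40 ± 0.12), but with 9621 exon bases was at -0.13 and not called with the length trend removed. Its exons overlap Yod1 on the other strand.

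Of 14 insulin-responsive genes 1 was lower, or 1 higher and 1 lower with the length trend removed. Of all genes 12.2% were higher and 11.6% lower, or 9.61% and 4.28% with that trend removed. Irs2, the insulin receptor substrate that fasting induces, lay at 7.82, 10.6 and 19.1 CPM in basal and 0.816, 6.1 and 16.2 CPM in metformin libraries (-0.89 ± 0.23, adjusted p = 0.0117), with 6 of 9 metformin libraries below the basal range. Its call was lost without 6-week HFD, and its exons overlap 9530052E02Rik on the other strand, which this library kit cannot separate. Igfbp1 (0.43 ± 0.24, adjusted p = 0.194), Srebf1 (0.02 ± 0.18, adjusted p = 0.958) and Txnip (-0.28 ± 0.13, adjusted p = 0.117), fasting and insulin responders, did not pass; the exons of Srebf1 overlap Rai1 and those of Txnip overlap Gm15441. The circulating stress hormones Fgf21 (0.41 ± 0.30, adjusted p = 0.323) and Gdf15 (0.59 ± 0.21, adjusted p = 0.0524) did not pass either, although Gdf15 was called in 13 of 37 alternatives. Rgs4, a regulator of G-protein signalling, lay at 1.07, 1.8 and 2.59 CPM in basal and 1.14, 1.69 and 2.66 CPM in metformin libraries (-0.01 ± 0.16, adjusted p = 0.981).

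**Figure D4:**
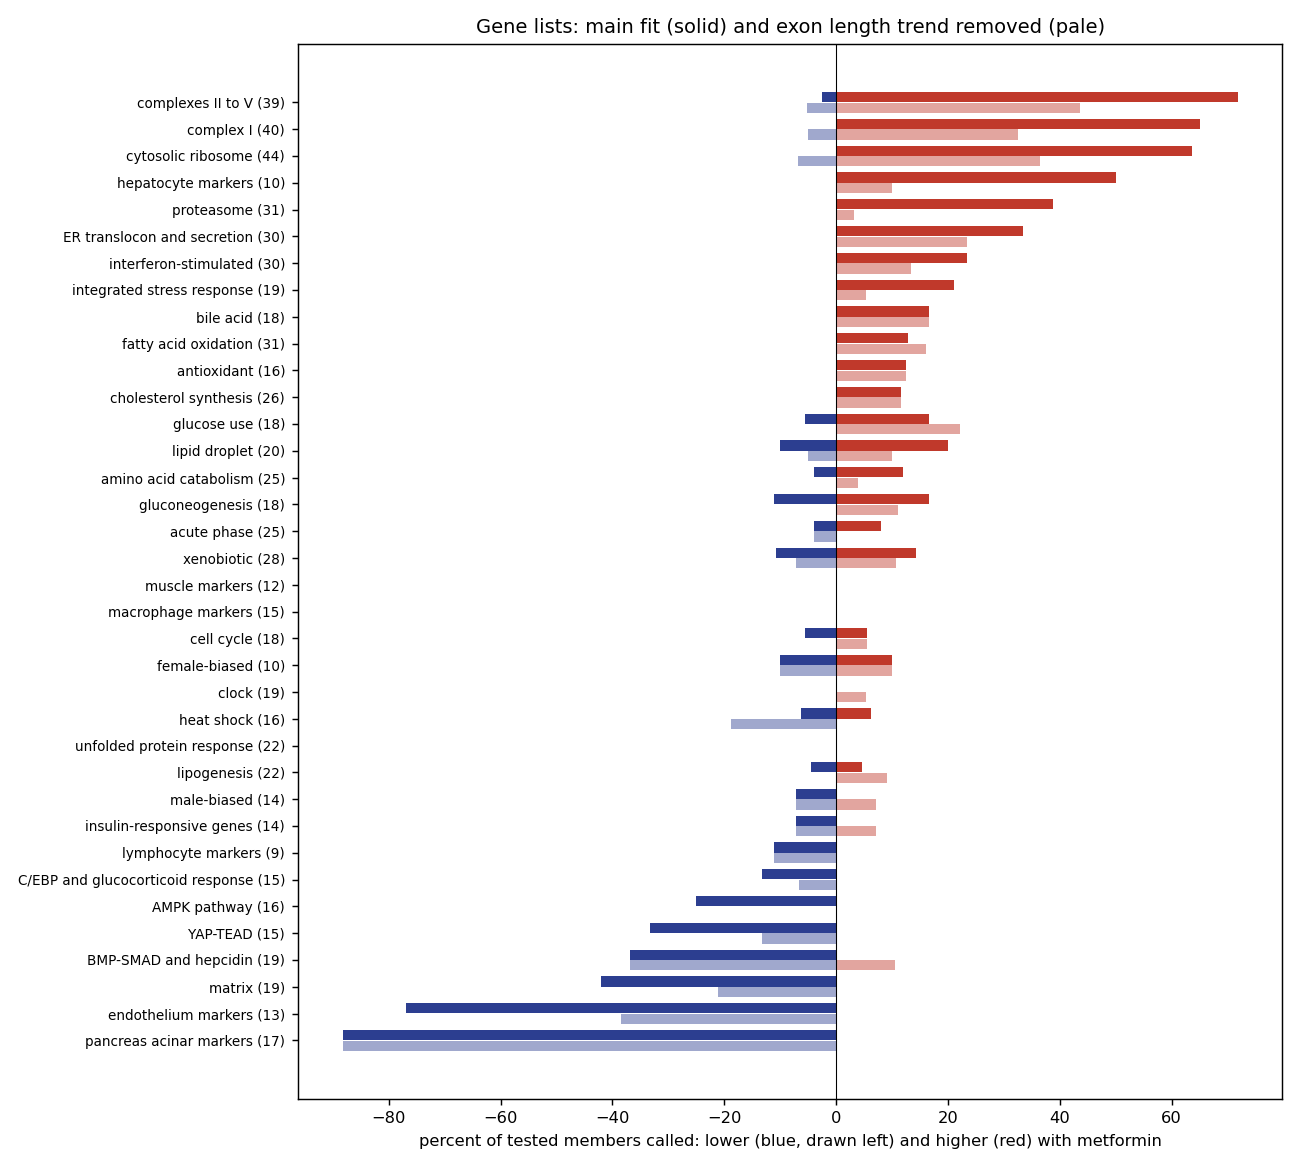
Share of tested members (number in brackets) of each gene list called higher (red, to the right) or lower (blue, to the left) with metformin, in percent; solid bars before and pale bars after removal of the length trend. Over all tested genes 12.2% were higher and 11.6% lower before removal, and 9.61% and 4.28% after it.

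Of 26 genes of cholesterol synthesis 3 were higher and none lower, with or without the length trend, although 24 had a positive difference and the median was 0.44. Sc5d (0.37 ± 0.09), Tm7sf2 (0.60 ± 0.17) and Acat2 (0.35 ± 0.11; 41.3% shared) passed, and each lost its call when 1 diet was left out. Over all genes 12.2% were higher, and DESeq2 called 5 of the 26. Lipogenesis had 1 of 22 higher (Agpat2, an acyltransferase of triglyceride synthesis, 0.41 ± 0.07, called in every alternative) and 1 lower (Acacb), or 2 higher and none lower with the length trend removed. Lipid droplet genes had 4 of 20 higher and 2 lower, with Fitm1 (0.60 ± 0.14), the fatty acid binding protein Fabp1 (0.59 ± 0.15), the adipogenic receptor Pparg (0.42 ± 0.12) and Cideb (0.38 ± 0.08) higher. Fitm2 (-0.24 ± 0.08) and the triglyceride lipase Pnpla2 (-0.23 ± 0.07) were lower. Fitm2 and Cideb overlap a gene on the other strand, and with the length trend removed Fitm1, Pparg and Fitm2 were called.

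Fatty acid oxidation and ketogenesis (31 genes) had 4 higher genes and no lower one, or 5 higher with the length trend removed. For this list and the others given here, the shares over all genes were 12.2% higher and 11.6% lower. The short-chain dehydrogenase Acads rose by 0.36 ± 0.07, the very-long-chain one Acadvl by 0.34 ± 0.10 and the hydroxyacyl-CoA dehydrogenase Hadh by 0.25 ± 0.08. Acads and Acadvl lost their calls without 6-week HFD. Of 18 bile acid genes 3 were higher: Nr0b2 above, Hsd3b7 (0.38 ± 0.07; 52.7% shared) and the uptake transporter Slc10a1 (0.29 ± 0.09, not called with the length trend removed). Of 28 xenobiotic genes 4 were higher and 3 lower (3 and 2 with the length trend removed), and among the 16 that are not shared none was higher and 1 lower. The higher genes were Cyp2c37 (0.54 ± 0.11), Cyp2c50 (0.45 ± 0.13), Cyp2c54 (0.67 ± 0.18) and Gsta1 (1.17 ± 0.31), and the lower ones Cyp3a44, Gstm3 and Tiparp (-0.46 ± 0.12), a target of the aryl hydrocarbon receptor. Of these 7, Tiparp alone is not shared, and its exons overlap 4931440P22Rik on the other strand.

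Of 30 interferon-stimulated genes 7 were higher and none lower, beside 12.2% of all genes higher (4 and none with the length trend removed, 2 without chow, 11 in DESeq2). Without chow basal replicate 1 it was 4 higher and 1 lower. Among them were the GTPases Igtp (0.71 ± 0.17), Irgm1 (0.44 ± 0.09) and Gbp6 (0.72 ± 0.18; 72.3% shared), of which Irgm1 alone kept its call without chow. Isg15, a ubiquitin-like antiviral protein, was at 0.69 ± 0.18. The median of the list was 0.55 on chow, 0.18 on 6-week HFD and -0.01 on 16-week HFD. The integrated stress response had 4 of 19 higher, Trib3 (0.59 ± 0.17), Ddit4 (0.62 ± 0.19), Eif4ebp1 (0.29 ± 0.08) and Psph (0.30 ± 0.10), and 1 with the length trend removed. None of 22 genes of the unfolded protein response and none of 19 clock genes was called by edgeR with all diets or by DESeq2, and 1 of each list had an unadjusted p below 0.05. The fit with the length trend removed called 1 clock gene higher. Without 16-week HFD 4 genes of the unfolded protein response and 1 clock gene were lower, and without chow 1 clock gene was. Heat shock genes had 1 of 16 higher (Hspe1, 0.32 ± 0.11; 21.4% shared) and 1 lower (Bag3), or none higher and 3 lower with the length trend removed, and antioxidant genes 2 of 16 higher (Sod2, 0.22 ± 0.06, 23.6% shared, and Pgd, 0.25 ± 0.08).

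Amino acid catabolism had 3 of 25 genes higher and 1 lower: Gnmt, which methylates glycine (0.59 ± 0.14), the ornithine aminotransferase Oat (0.37 ± 0.12) and the urea cycle enzyme Ass1 (0.30 ± 0.10; 41.0% shared) against Tat. Once the length trend was removed 1 was higher and none lower. Among all genes 12.2% were higher and 11.6% lower before that removal. Of 25 acute phase genes haptoglobin (Hp, 0.31 ± 0.10) and hemopexin (Hpx, 0.33 ± 0.12), which bind free hemoglobin and heme, were higher and Hamp was lower, and with the length trend removed Hamp alone was called. Of 14 male-biased genes Ugt2b38 was lower (-0.72 ± 0.23; 45.4% shared), with 1 higher and 1 lower once the length trend was removed, and of 10 female-biased genes Nipal1 was higher and Cyp3a44 lower. Of 18 cell cycle genes Pcna was higher (0.20 ± 0.06; 21.2% shared) and Birc5 lower (-0.50 ± 0.17), or 1 higher and none lower with the length trend removed.

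Markers of endothelium and genes of the matrix had more lower than higher calls. In bulk liver, fewer cells of a type and less RNA per cell cannot be told apart. Among all genes 11.6% were lower, and 4.28% with the length trend removed. Of 13 endothelium markers 10 were lower and none higher (median -0.48), and 5 with the length trend removed. Their summed level was 364, 422 and 692 CPM in basal and 269, 331 and 435 CPM in metformin libraries, with 6 of 9 metformin libraries below the basal range. Cdh5 (VE-cadherin) fell from 18.2, 22.2 and 42.4 CPM to 9.74, 15.7 and 18.6 CPM (-0.70 ± 0.16, adjusted p = 0.00563), and Eng (endoglin) by 0.52 ± 0.11 in 9 of 9 libraries, where its exons overlap Fpgs on the other strand. Kdr, the VEGF receptor, was at -0.69 ± 0.16. The scavenger receptors Stab1 (-0.48 ± 0.13) and Stab2 (-0.47 ± 0.14), the hyaluronan receptor Lyve1 (-0.87 ± 0.24) and Pecam1 (-0.45 ± 0.13) were lower too; Stab1 overlaps Nt5dc2 on the other strand. Without 6-week HFD 2 markers were lower, and without 16-week HFD 4. The median of the list was -0.20 on chow, -0.34 on 6-week HFD and -0.88 on 16-week HFD. The summed level was 400, 692 and 582 CPM in 16-week HFD basal replicates 1, 2 and 3. Whether the medians differ between diets was not tested.

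Of 19 matrix genes, all with a negative difference, 8 were lower (median -0.46) and 4 with the length trend removed, while without 6-week HFD none passed. Their median was -0.22 on chow, -0.31 on 6-week HFD and -0.77 on 16-week HFD. Tgfb1, a fibrosis cytokine (-0.57 ± 0.13), the basement membrane collagen Col4a2 (-0.66 ± 0.16) and the protease inhibitor Timp2 (-0.49 ± 0.13) were the 3 with the smallest p. These lists hold long mRNAs (median exon length 3658 bases for endothelium and 5143 bases for matrix), and the length trend moves with them. In the deciles of genes that hold these lengths, 12.8% and 24.8% of all genes were lower. Without 16-week HFD metformin replicate 1, the library with the lowest length correlation, 4 matrix genes and 9 endothelium markers were lower.

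Hepatocyte markers had 5 of 10 higher and none lower, or 2 higher without 16-week HFD metformin replicate 1. Without 16-week HFD it was 3 higher and 1 lower, and without chow or without 6-week HFD 1 higher. Over all tested genes 12.2% were higher and 11.6% lower. The median exon length of the hepatocyte list was 1449 bases. In the decile of genes that holds this length 26.3% were higher, or 9.76% with the length trend removed. Apoa2, an apolipoprotein of HDL, rose from 4970, 5440 and 6470 CPM to 7150, 8200 and 15500 CPM (0.65 ± 0.11, adjusted p = 0.00128) without overlap. Albumin (Alb, 0.27 ± 0.09), Apoa1 (0.38 ± 0.13), Apoc3 (0.35 ± 0.10) and the antitrypsin gene Serpina1c (0.37 ± 0.13; 77.9% shared) were the others, and Apoa2 alone was called with the length trend removed. None of 15 macrophage markers was called in edgeR, where 5 had an unadjusted p below 0.05, all lower, and 4 were lower in DESeq2. Their sums overlapped, at 236, 278 and 530 CPM in basal and 169, 321 and 436 CPM in metformin libraries. Of 9 lymphocyte markers the T cell gene Cd8a was lower (-1.29 ± 0.34), and of 6 cholangiocyte markers osteopontin (Spp1) was higher (0.48 ± 0.09). Mean Cd8a in basal and metformin libraries was 2.08 and 0.433 CPM on 6-week HFD. It was 0.421 and 0.372 CPM on chow and 0.568 and 0.277 CPM on 16-week HFD. Without 6-week HFD no marker of either list was called. None of 4 neutrophil, 4 adipocyte and 1 erythroid markers was called in edgeR; 1 neutrophil marker had an unadjusted p below 0.05 and was lower in DESeq2.

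Digestive enzymes of the pancreas gave most of the largest decreases, from reads that lay mainly in the chow basal libraries. Of 17 tested acinar markers 15 were lower (median -3.12), with or without the length trend removed. Their sum was 2270, 1010 and 378 CPM in the 3 chow basal libraries and 10.6 to 226 CPM in the other 6 basal libraries, against 8.71, 24.1 and 121 CPM in metformin libraries (lowest, median and highest), and the ranges overlapped. Rnase1 (-3.58 ± 0.99), Cpb1 (-3.49 ± 1.11), Cel (-3.47 ± 1.02), Pnlip (-3.37 ± 1.05), Cela2a (-3.29 ± 0.99; its exons overlap Casp9), Cela3b (-3.27 ± 0.98; 22.8% shared), Cpa1 (-3.14 ± 1.03), Ctrl (-3.11 ± 0.89) and Ctrb1 (-2.80 ± 0.94) were among those called. Without chow none of 16 was called, without 6-week HFD 6 were, and without chow basal replicate 1 alone 9 were. Outside the list, 2210010C04Rik, a trypsinogen gene, was at -3.17 ± 1.01. In 1 of the 19 listed markers no metformin library held a read. The part of pancreas tissue in these results was not tested.

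Muscle transcripts also varied between libraries. None of 12 tested muscle markers was called by edgeR or DESeq2 and 1 had an unadjusted p below 0.05, at a median of -1.75, although their summed level on the log2 scale was higher in metformin by 0.46 on average. The sum reached 1850 CPM in 6-week HFD basal replicate 1 and lay between 0.644 and 233 CPM in the other basal libraries, against 1.22 to 151 CPM with metformin.

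Within single diets the count of calls differed widely. Between metformin and basal libraries 104 genes differed on chow (0.793%), 126 on 6-week HFD (0.961%) and 2912 on 16-week HFD (22.2%). With the length trend removed the counts were 170 (1.3%), 94 (0.717%) and 2261 (17.2%). The counts moved with single libraries: without 16-week HFD metformin replicate 1 they were 651, 1241 and 1655, and without 16-week HFD basal replicate 2 the 16-week count was 982. The fold changes on separate diets, which share no library, had a Spearman correlation over 13108 genes of 0.46 between chow and 6-week HFD, 0.33 between chow and 16-week HFD and 0.54 between both HFD times. With the length trend removed these were 0.37, 0.20 and 0.37. Genes are not independent replicates, so these describe the libraries.

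A test of whether the metformin difference varied with diet called 25 genes (0.191%), while 1925 had an unadjusted p below 0.05; with the length trend removed it called 63 (0.481%), 21 of them among the first 25. DESeq2 called 435. Without 16-week HFD metformin replicate 1 the count was 87, and it was 0 without replicate 2 of the chow metformin group, and likewise without replicate 2 of either HFD basal group. The 6 genes with the smallest p are given here.

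Tmed5, a cargo receptor of the early secretory pathway, was lower with metformin on chow (331 ± 19.8 to 211 ± 34.4 CPM, SD, n = 3) and on 6-week HFD (189 ± 9.73 to 135 ± 16.5 CPM) and higher on 16-week HFD (84.9 ± 14.9 to 136 ± 5.78 CPM). The libraries of each diet did not overlap. Fchsd2, a membrane-shaping protein, was higher with metformin on chow (15.6 ± 1.58 to 22.3 ± 1.21 CPM) and lower on 6-week HFD (26.6 ± 3.36 to 17.9 ± 2.16 CPM) and 16-week HFD (29.8 ± 1.6 to 15.9 ± 3.71 CPM). Sap130, a subunit of a histone deacetylase complex, had the same pattern at 18 ± 1.49 to 26.4 ± 1.13 CPM, 22.9 ± 1.68 to 18.2 ± 2.07 CPM and 24.1 ± 0.973 to 18.4 ± 1.71 CPM.

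The other 3 differed most on 16-week HFD. Kcnq1ot1, an imprinted noncoding RNA of 83437 exon bases that overlaps Kcnq1 on the other strand, was at 64.6 ± 10.4 CPM without and 20.8 ± 7.38 CPM with metformin there, and at 0.03 on chow and 0.0045 on 6-week HFD on the log2 scale. Grk4, a receptor kinase, was at 14.6 ± 2.48 and 5.69 ± 1.47 CPM on that diet, while its differences on chow and 6-week HFD were 0.22 and 0.05. Sbk1, a kinase, was at 45.9 ± 4.2 and 25.6 ± 5.82 CPM on 16-week HFD and differed by -0.28 on chow and 0.35 on 6-week HFD. On 16-week HFD the basal levels of Kcnq1ot1, Grk4 and Sbk1 were above those of both other diets in all 3 libraries.

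**Figure D5:**
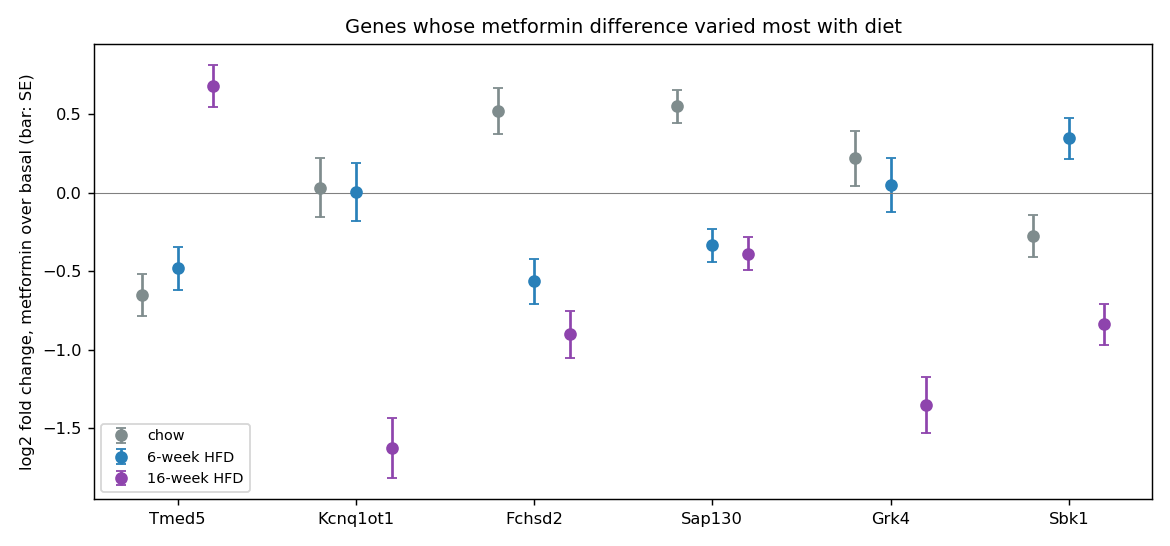
Log2 fold change of metformin over basal on each diet (points, bars are standard errors of the fit) for the 6 genes whose difference varied most with diet. Tmed5 runs from -0.65 on chow to 0.68 on 16-week HFD, and Kcnq1ot1 reaches -1.63 on 16-week HFD alone.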

How the data were processed

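Liver polyA RNA had been made into TruSeq version 1 libraries, which keep no strand, and read from both ends at 40 to 50 bases, per the labels' protocols. The authors deposited raw read counts per gene, made with TopHat 1.4.0 on build mm9 and HTSeq (version not given in the sources used here) with a refFlat gene model, per the submitters' processing notes. Deposited normalized values were not used here. Groups came from titles and characteristics.

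Counts of the 18 libraries were filtered (filterByExpr, minimum count 10), scaled by TMM and fitted in edgeR 4.0.16 (R 4.3.3) with diet and metformin as additive terms. Quasi-likelihood p-values were adjusted by Benjamini-Hochberg over all 13108 tested genes, and genes below 0.05 were called. Differences are log2 fold changes of metformin over basal with a standard error of the fold change over the root of F. Within-diet and metformin-by-diet tests used one coefficient per group. CPM are counts over the TMM-scaled library size. Exon lengths came from the deposited gene models. The length trend was a natural spline (5 degrees of freedom) of each library's deviation in log2 CPM (prior count 2), entered as an offset. Shared 40-base words, GC content and coding sequences came from GENCODE M21 transcripts, with a match for 99% of tested genes.

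Named were the 8 highest and 8 lowest fold changes (called with and without the length trend, same sign on all diets, a mean CPM of at least 5), from each of 36 lists the 3 members with the smallest p, 15 anchors and the 6 genes with the smallest p for variation with diet. The 36 lists, the comparison and this rule were chosen with earlier results of these data known. Another 5 lists, the single called members named where a list had few calls, and the genes that held in every alternative were picked after the calls were seen. The scripts were tested on simulated counts. Alternatives were RLE and upper-quartile scaling, no filter, DESeq2 1.42.0, limma-voom (limma 3.58.1), a replicate block, removal of length and GC trends, all 45 libraries, leaving out each library or diet, shared genes left out and libraries thinned to one depth. Results for some genes that the naming rule picked are not reported here.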

Additional observations from a re-analysis of the deposited data

Results flagged for a closer look

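The metformin difference of 6 genes varied with diet by the test of that variation in edgeR's quasi-likelihood fit. The adjusted p was 0.0184 for Tmed5, Kcnq1ot1, Fchsd2 and Sap130, 0.0209 for Grk4 and 0.0343 for Sbk1. Of 25 alternatives, Tmed5 was called in 21, Fchsd2 in 17, Grk4 in 16, Kcnq1ot1 in 15, Sap130 in 15 and Sbk1 in 9. Over the fits that left out 1 library, the adjusted p ran from 0.0209 to 0.0608 for Tmed5, from 0.00368 to 0.0687 for Kcnq1ot1, from 0.00296 to 0.0775 for Fchsd2, from 0.0194 to 0.0775 for Sap130, from 0.0205 to 0.0687 for Grk4 and from 0.00296 to 0.125 for Sbk1. With the length trend removed it was 0.312 for Kcnq1ot1 and between 0.0174 and 0.0277 for the other 5.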

How the results depend on the processing

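The main count of 3118 was 1704 with the replicate block and the length trend removed, 1821 with the length trend removed, 1888 with length and GC trends removed, 1877 with these and the block, 1599 for unshared genes with the length trend removed, 1706 without chow and 582 without 6-week HFD. Higher calls (1594) were 2545 with all 45 libraries, 866 without chow and 337 without 6-week HFD. Lower calls (1524) were 544, 561, 568, 596, 473, 840 and 245 under the first 7 settings in that order. Without 16-week HFD the main count was 2607, with 1436 higher and 1171 lower. Under the other alternatives with all diets the main count was 2704 (no filter) to 4393 (all 45 libraries), and RLE scaling gave 1728 higher and 1340 lower. Over fits without 1 library it ran from 2239 to 3480, higher from 1311 to 1769 and lower from 902 to 1711. Metformin by diet (25) was 12 without filter, 435 in DESeq2, 63 with the length trend removed and 18 with length and GC trends removed. It was 131 without both 16-week HFD libraries numbered 1, and 0 to 87 without 1 library. Within diets, chow (104) was 334 in DESeq2, 170 and 174 with length and with length and GC trends removed, 904 without both libraries numbered 1 and 20 to 651 without 1 library. The 6-week count (126) was 389 in DESeq2, 1636 without those libraries and 52 to 1241, and the 16-week count (2912) was 1600 with length and GC trends removed and 982 to 3666. The cause of these moves was not tested. The length difference between libraries was -0.407 to -0.557 under its alternatives. Prkaa2 turned positive with the length trend removed (0.0229), also with the block (0.0158) or among unshared genes (0.0275).

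Same-numbered basal and metformin libraries deviated together at over 0.1 in 7 of 9 pairs (chow -0.02 and -0.22), so the numbers were not taken as pairs; each 6-week and 16-week library correlated best with its own number. The replicate block gave 3310 calls, 1642 higher and 1668 lower, with 9 in place of 3 higher genes of cholesterol synthesis, 3 in place of 1 lower insulin-responsive gene, 4 in place of 0 lower macrophage markers and 1 higher and 2 lower lymphocyte markers in place of 1 lower. Of the 151 named genes that were called, 52 had the same direction and call in every alternative in which they were fitted, and of the 22 not called 12 did. Genes near 1 CPM, such as Rgs4 and Cd8a, rest on few reads, and smaller differences were not detectable in them.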
